A study of Microcebus murinus with 18 samples.

Results

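Expression of the proteins of the small subunit of the cytosolic ribosome was followed in the temporal cortex of the grey mouse lemur, Microcebus murinus, a small primate in which some old animals develop amyloid plaques. The list holds 29 genes, named by their symbols and chosen with earlier results of these data known. Every probe set annotated to one of them was taken, also where a snoRNA symbol stood beside it. Of these 29 genes, 27 had a probe set in the annotation used and 25 had one that passed a minimum of signal, a signal of 150 or more on at least 3 of the 18 arrays. RPSA, the laminin receptor precursor, and RPS27A, a fusion of ubiquitin with a ribosomal protein, had no probe set in the annotation used here. RPS26, which lines the exit of the mRNA channel, had 1 probe set, shared with the pseudogene RPS26P11 and another locus, and RPS28 had 3 that did not reach the minimum. In all 64 probe sets belonged to these genes, of 54675 on the array, and 43 of the 64 passed the minimum, as did 14567 of all probe sets.

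The animals were 2 AD-like old females whose brains carried amyloid plaques, 10 old animals without them (3 males and 7 females) and 6 young adults (2 males and 4 females). All were untreated animals bred in captivity, and 1 array of human probes was hybridized with the temporal cortex RNA of each animal. The values are linear signals that the authors had scaled to the same trimmed mean of 100 on every array, so a signal has no physical unit, and it depends on how well a human probe matches the lemur transcript. Differences between animals are therefore taken within a probe set, signals of different probe sets do not rank their mRNAs, and differences are on the log2(signal + 16) scale, which understates those of dim genes. In bulk tissue fewer cells of a type and less RNA per cell cannot be told apart.

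The small subunit binds mRNA, finds the start codon and holds the decoding site, where codons meet their tRNAs. Its proteins are needed in nearly equal amounts, and their mRNAs, which carry a pyrimidine-rich start, are translated together under the control of the mTOR kinase. Many of these genes have numerous processed pseudogenes in primates, and in the cortex their mRNAs are found in neurons and glia alike. A gene is represented below by its brightest probe set with a symbol of its own. Of these 25 probe sets, 12 end in _s_at and 9 in _x_at, the suffixes of the manufacturer for probes shared by several transcripts, so signals of related copies cannot be told apart for them.

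Most probe sets of these genes gave bright signals. The mean signal over the 18 animals was 3000 or more for 16 of the 25 genes and 1000 to 3000 for 5, whereas 3 lay at 300 to 1000 and RPS27L alone was below. The ratio of the highest to the lowest animal was 2.44 for RPS13, 2.64 for RPS4X and 2.71 for RPS2 and RPS9, the narrowest, and 8.09 for RPS6, the phosphorylation target of the S6 kinases. No ratio is given for RPS3, with signals under 150 in 4 of its 18 animals, and RPS27L, since their lowest signals were near the median signal of the arrays.

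The arrays themselves differed at their bright end, and the part of this in the results below was not tested beyond the values given. The 99th percentile of the signals was 2089 and 3078 on the AD-like arrays, 2089 to 4128 on the old and 1592 to 3729 on the young adult arrays. It averaged 2134 ± 459 (SD, n = 5) in males and 3234 ± 595 (SD, n = 13) in females (two-sided exact permutation test, p = 0.00175). The old arrays averaged 3167 ± 659 (SD, n = 10) and the young adult arrays 2646 ± 871 (SD, n = 6), which is within the spread of the animals (exact permutation test, two-sided, p = 0.195). The arrays of AD-like F2, old M1, old M2 and young adult M2 are called arrays without poly-A control RNA here, by signal and not by any label, since their summed control signals of 73.4 to 167.8 contrast with 751.3 to 8765.0 elsewhere. The labelled sexes held for RPS4Y1, the Y-linked partner of RPS4X, whose lowest male signal was 1807 and whose highest female signal was 281.

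The mean of log2(signal + 16) over the 25 genes was 11.49 in AD-like F1 and 11.45 in AD-like F2. It lay between 11.05 in old M1 and 12.31 in old F3 among old animals, and between 10.71 in young adult M1 and 11.85 in young adult F3 among young adults. Old M1 was the lowest old animal for 19 of the 25 genes and young adult M1 the lowest young adult for 19 of 25, and both arrays had the lowest 99th percentile of their group. After quantile normalization, which gives all arrays the same distribution, the means of old M1 and young adult M1 were 11.52 and 11.41, inside the range of their groups.

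**Figure D1:**
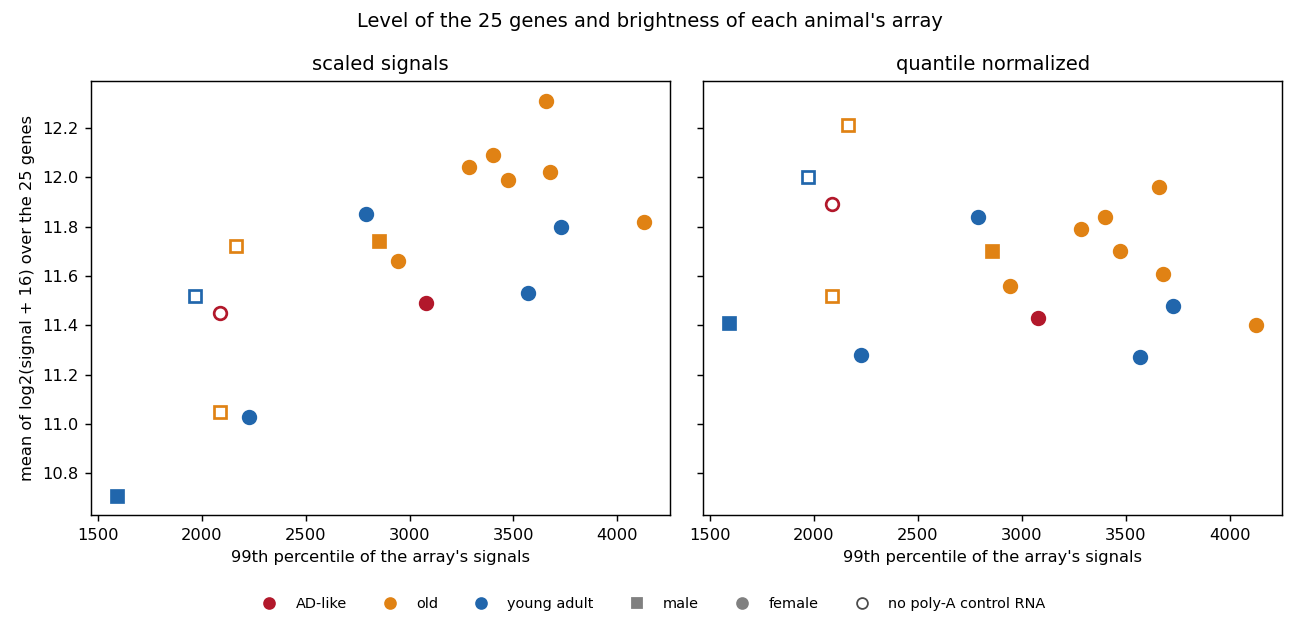
Mean of log2(signal + 16) over the 25 genes in each animal (y axis) against the 99th percentile of the signals of its array (x axis), for AD-like (red), old (orange) and young adult (blue) animals, males as squares, females as circles, and open symbols for arrays without poly-A control RNA. With scaled signals (left) young adult M1, at 1592 and 10.71, and old M1, at 2089 and 11.05, lie at the lower left, and after quantile normalization (right) they lie at 11.41 and 11.52.

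The first question was how the genes differ with age. With age 24 of the 25 genes had a positive log2 difference, where 53.9% of all kept probe sets did, and only RPS27L a negative one. At an unadjusted p under 0.05 in limma 9 genes were higher and 1 lower in old animals, where 3.49% of all kept probe sets were higher and 2.42% lower, and 0 of the 25 passed adjustment over all probe sets (lowest adjusted p = 0.836). No gene separated the groups completely, whereas 0.0206% of all kept probe sets had all old animals higher. In 18 of the 25 genes at least 8 of the 10 old animals lay above the young adult median, a count for which no share over all kept probe sets was taken. Bright probe sets had a higher background. Of the 1584 kept probe sets with a mean signal of 1000 or more, 86.3% had a positive difference and 8.46% were higher at an unadjusted p under 0.05.

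Among proteins of the head of the subunit, RPS20, which becomes ubiquitinated on stalled ribosomes, had signals from 598.1 to 1247 with a median of 1025 in old animals, against 371.6 to 811.1 with a median of 547.3 in young adults. All 10 old animals were above the young adult median and 6 of them above every young adult. This gave a log2 difference of 0.71 ± 0.22 (SE; unadjusted p = 0.0038, limma adjusted p = 0.836). The other kept probe set of RPS20 gave 0.43 ± 0.23 (SE; unadjusted limma p = 0.0803), and 0.41 after quantile normalization (p = 0.0849).

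RPS10, another target of ubiquitination at stalled ribosomes, had signals from 4276 to 16966 with a median of 13823 in old animals, against 3654 to 11634 with a median of 8524 in young adults. Of the old animals 9 of 10 exceeded every young adult, and old M1 alone lay among the low young adults. In limma this was a log2 difference of 0.73 ± 0.30 (SE; unadjusted p = 0.0224, limma adjusted p = 0.836).

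RPS19, the gene most often mutated in Diamond-Blackfan anaemia in humans, had signals from 2829.8 to 5667 with a median of 4874 in old animals, against 1551 to 4497 with a median of 3607 in young adults. In all 7 of the 10 old animals were above all young adults. The log2 difference was 0.58 ± 0.26 (SE; unadjusted p = 0.0384). Another bright probe set of RPS19 gave 0.57 ± 0.24 and a dim one 0.06 ± 0.24 (SE; unadjusted limma p = 0.0264 and 0.797).

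Among proteins of the body of the subunit, RPS21, which has no counterpart in bacteria, had the smallest p of the 25 genes. Its signals ran from 1882 to 3939.8 with a median of 2574 in old animals, against 1207 to 2494 with a median of 1443 in young adults. All 10 old animals lay above the young adult median, 7 above the highest young adult, and young adult F2 was the one that reached into the old range most. This gave a log2 difference of 0.74 ± 0.21 (SE; unadjusted p = 0.0021, limma adjusted p = 0.836).

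RPS15A, the counterpart of bacterial S8, had signals from 1459 to 5002 with a median of 2298 in old animals, against 740.0 to 2086 with a median of 1661 in young adults. The groups overlapped widely, and old F5 stood at the top. In limma this was a log2 difference of 0.74 ± 0.30 (SE; unadjusted p = 0.0231).

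RPS24, needed for the maturation of the small subunit RNA, had signals from 3924 to 9905 with a median of 4772 in old animals, against 1932 to 5316 with a median of 3575 in young adults. All 10 old animals exceeded the young adult median, but 2 alone exceeded all young adults. The log2 difference was 0.64 ± 0.26 (SE; unadjusted p = 0.0248).

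RPS7, which can bind the p53 ligase MDM2 when free of the ribosome, had signals from 3949.8 to 10493 with a median of 6848 in old animals, against 2514 to 6892 with a median of 4848 in young adults. Old M1 was again the lowest old animal and young adult M1 the lowest young adult. This gave a log2 difference of 0.59 ± 0.26 (SE; unadjusted p = 0.0342). The other kept probe set of RPS7 gave 0.47 ± 0.33 (SE; unadjusted limma p = 0.171).

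RPS27L, a paralog of RPS27 that p53 induces, went the other way. It was dim, with signals from 35.1 to 239.5 and a median of 100.6 in old animals, against 88.0 to 273.8 with a median of 157.8 in young adults, and with only 7 of 18 signals at 150 or more. In old animals 2 of 10 signals lay above the young adult median, and the highest of the young adults was M1, the animal that was lowest for most other genes. In limma this was a log2 difference of -0.71 ± 0.33 (SE; unadjusted p = 0.0436, limma adjusted p = 0.836).

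RPS27 itself, a zinc-binding protein, had signals from 2286 to 8744 with a median of 4149 in old animals, against 1342 to 6587 with a median of 3592 in young adults, and the groups overlapped almost wholly. Its log2 difference was 0.38 ± 0.37 (SE; unadjusted p = 0.308). FAU, which encodes RPS30 fused to a ubiquitin-like protein, had signals from 2321 to 6738 with a median of 4661 in old animals, against 2027 to 5357 with a median of 3097 in young adults. For FAU 9 of the 10 old animals lay above the young adult median, and the log2 difference was 0.54 ± 0.26 (SE; unadjusted p = 0.0479).

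The largest p values belonged to RPS3, RPS2 and RPS27 with p = 0.916, 0.897 and 0.308. RPS3, which lines the mRNA entry and also takes part in DNA repair, had signals from 45.9 to 720.9 with a median of 337.7 in old animals, against 35.7 to 653.9 with a median of 266.5 in young adults. RPS2, its neighbour at the mRNA entry, had signals from 394.6 to 1068 with a median of 724.6 in old animals, against 502.7 to 1028 with a median of 609.4 in young adults. The log2 differences of 0.06 ± 0.55 and 0.03 ± 0.22 (SE) for RPS3 and RPS2 are smaller than their errors.

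**Figure D2:**
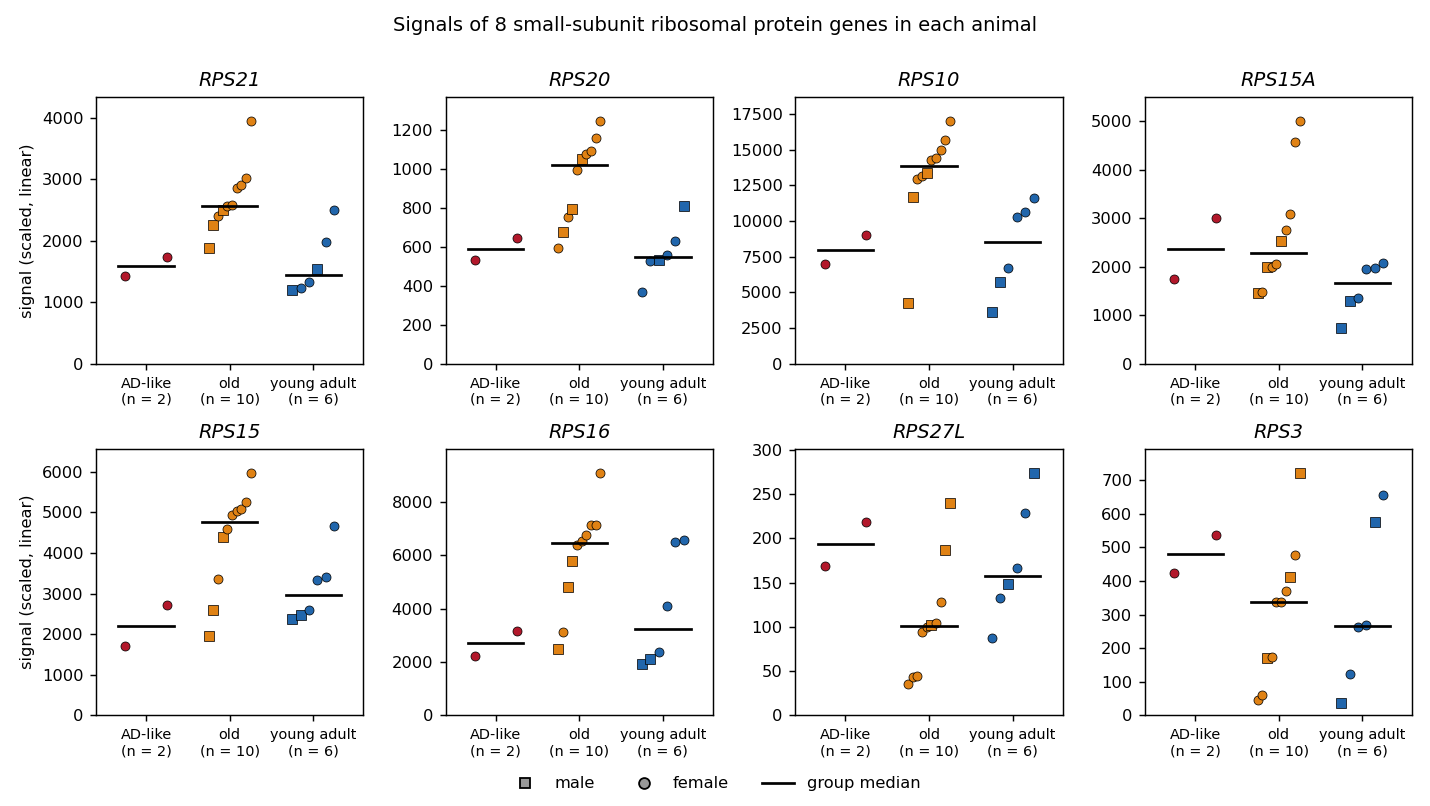
Scaled linear signals (y axis, each from 0) of 8 genes in AD-like (n = 2), old (n = 10) and young adult (n = 6) animals, 1 point per animal, males as squares and females as circles, with the group median as a line. RPS21 in both AD-like animals, at 1742 and 1437, lies below all 10 old animals, and RPS27L is the only one of the 8 with a lower median in old than in young adult animals, 100.6 against 157.8.

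The remaining 13 genes had log2 differences between 0.24 and 0.68 in favour of old animals. RPS16, whose tail reaches the tRNA, passed an unadjusted p under 0.05 with 0.68 ± 0.32 (SE; p = 0.0480), and RPS25, which some viral mRNAs need to recruit the ribosome, missed it with 0.56 ± 0.27 (SE; p = 0.0503). RPS12 had 0.61 ± 0.42, RPS29 and RPS14 had 0.48, and RPS23 of the decoding site had 0.47 ± 0.24 (SE). RPS4X, RPS6 and RPS15 had 0.43 each, RPS3A had 0.40, RPS18 had 0.38, RPS13 had 0.29 and RPS9 had 0.24. Other kept probe sets of RPS3A gave 0.31, 0.64 and 0.83. The last had an unadjusted limma p of 0.00639, and was 0.53 after quantile normalization (p = 0.04). The shared probe set of RPS26 had signals from 467.0 to 1123 in old animals, against 136.3 to 841.3 in young adults, and a log2 difference of 0.55 ± 0.30 (SE; p = 0.0857).

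The scaling of the arrays changed these values. The median log2 difference over the 25 genes was 0.48 with scaled signals, 0.51 after median centring and 0.20 after quantile normalization, with 22 genes above 0 and 3 below, RPS2 and RPS9 having changed sign. RPS20, at 0.56, and RPS21, at 0.47, kept an unadjusted p under 0.05, as did RPS27L at -0.67. Of the 14567 kept probe sets 7645 were above 0 after quantile normalization, and 519 were higher and 380 lower at such a p. Over all kept probe sets the median difference was -0.04 at mean signals under 300, 0.10 at 300 to 1000, 0.23 at 1000 to 3000 and 0.32 at 3000 or more, and after quantile normalization between 0.01 and 0.04 in the 4 bands. All 16 genes in the brightest band lay above the median of their band under both scalings, with a median of 0.48 for scaled signals and 0.20 after quantile normalization. The part of the bright end of the arrays in the differences was not tested beyond these values.

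**Figure D3:**
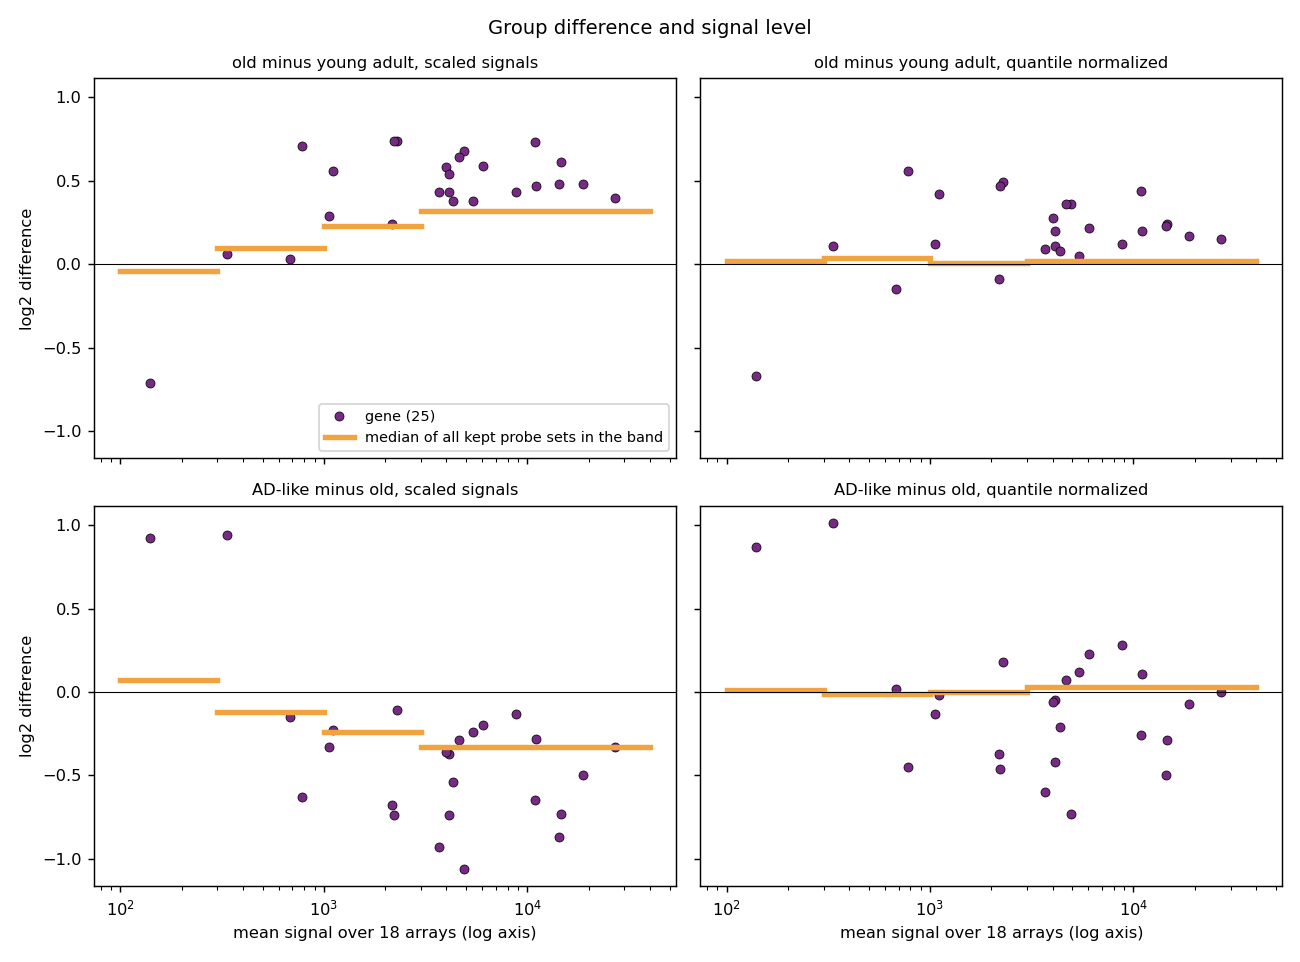
Log2 difference of each of the 25 genes (points) against its mean signal over 18 arrays (log axis), for old minus young adult (top) and AD-like minus old (bottom), with scaled signals (left) and after quantile normalization (right). The orange lines give the median of all kept probe sets in each band of mean signal, which moves with brightness to 0.32 and -0.33 in the brightest band for scaled signals and lies at 0.02 and 0.03 there after quantile normalization.

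Single arrays weighed on the count. Without young adult M1 the genes at an unadjusted p under 0.05 numbered 2, where 3.44% of all kept probe sets and 2.65% of the bright ones passed, and without old M1 they numbered 18, where 7.21% and 14.8% did. They numbered 4 without young adult F4, 5 without old F6 or old F3, and 6 without young adult M2. Shares over all kept probe sets were not taken in these last fits. With all 18 arrays 5.91% of all kept probe sets and 8.52% of the bright ones passed. On the 14 arrays with poly-A control RNA the median difference was 0.66 and 17 genes had an unadjusted p under 0.05, 16 higher and 1 lower. There 4.42% of all kept probe sets were higher and 2.59% lower, and of the bright ones 15.7% were higher and 0.0631% lower. Without young adult M1 as well, a setting added after seeing the data, it was 0.47 and 6 genes did, all higher, where 2.65% of all kept probe sets and 4.86% of the bright ones were higher. The arrays without poly-A control RNA, 2 old and 1 young adult, are too few for a test of their own. No member passed adjustment in any of these.

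The second question was whether the AD-like animals differ from the other old ones. Against old animals 23 of the 25 genes had a negative log2 difference in AD-like ones, where 51.9% of all kept probe sets and 80.9% of those with a mean signal of 1000 or more did. Both AD-like signals lay below the old median for 19 genes, a count for which no share over all kept probe sets was taken. At an unadjusted p under 0.05 in limma 5 genes were lower and 0 higher, where 3.62% of all kept probe sets were lower and 1.22% higher, and 0 of the 25 passed adjustment, as 0.00686% of all kept probe sets did (lowest adjusted p = 0.964). Of the bright probe sets 2.97% were lower. The fit takes the AD-like pair to vary as much as the other groups do.

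RPS15, a protein of the head that sits near the site where tRNAs enter, had signals of 2719 and 1699.6 in AD-like F1 and F2, against 1966 to 5966 with a median of 4768 in old animals and 2372 to 4650.3 with a median of 2966 in young adults. Both AD-like animals were below 8 of the 10 old ones, and AD-like F2 was below every other animal. The log2 difference from old animals was -0.93 ± 0.38 (SE; unadjusted p = 0.0247, limma adjusted p = 0.964), but -1.27 without AD-like F1 and -0.59 without AD-like F2.

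RPS16 had signals of 3184 and 2235 in AD-like F1 and F2, against 2486 to 9090.2 with a median of 6466 in old animals and 1938 to 6571 with a median of 3246 in young adults. The AD-like values lay inside the lower part of the young adult range, and 8 old animals were above both. The log2 difference was -1.06 ± 0.49 (SE; unadjusted p = 0.0417).

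RPS29, a small zinc-binding protein, had signals of 9597 and 7915 in AD-like F1 and F2, against 7374 to 24441 with a median of 16822 in old animals and 7054 to 17182 with a median of 11346 in young adults. Of the old animals 9 of 10 were above both AD-like ones and old M1 below. This gave a log2 difference of -0.87 ± 0.42 (SE; unadjusted p = 0.0492).

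RPS20 had signals of 536.4 and 648.3 in AD-like F1 and F2, and 9 of the 10 old animals were above both. Its log2 difference was -0.63 ± 0.32 (SE; unadjusted p = 0.0663). On the other kept probe set of RPS20 the AD-like signals were 160.5 and 442.7, and 3 old animals were above both. The log2 difference there was -0.51 ± 0.35 (SE; unadjusted limma p = 0.157).

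In the body, RPS21 had signals of 1742 and 1437 in AD-like F1 and F2, below all 10 old animals and inside the young adult range. It was the only one of the 25 genes in which the AD-like and old animals did not overlap, where 1.63% of all kept probe sets lay below all old animals and 1.39% above. In limma this was a log2 difference of -0.74 ± 0.32 (SE; unadjusted p = 0.0303). After quantile normalization 1 old animal lay below the higher AD-like one for RPS21, and it was RPS15 and RPS29 that did not overlap. For that scaling no share of all kept probe sets without overlap was taken, so these 2 genes have no background.

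RPS9, at the mRNA entry, had signals of 1090.1 and 1939 in AD-like F1 and F2, against 1596 to 2955 with a median of 2531 in old animals and 1521 to 2557 with a median of 2091 in young adults. AD-like F1 was below all other animals, while AD-like F2 lay among the lower old ones. The log2 difference was -0.68 ± 0.31 (SE; unadjusted p = 0.0411), but -0.27 without AD-like F1 and -1.09 without AD-like F2. On the other kept probe set of RPS9, a dim one, it was -0.10 ± 0.38 (SE; unadjusted limma p = 0.806).

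RPS27L and RPS3 stood on the other side. RPS27L had signals of 168.5 and 218.2 in AD-like F1 and F2, above 8 of the 10 old animals, and a log2 difference of 0.92 ± 0.50 (SE; unadjusted p = 0.0761). RPS3 had signals of 423.0 and 535.8, also above 8 old animals, and a log2 difference of 0.94 ± 0.83 (SE; unadjusted p = 0.270). Both genes are dim. RPS27 had signals of 2114 and 4243, and FAU had signals of 3222 and 2393 in AD-like F1 and F2, with log2 differences of -0.54 ± 0.55 and -0.74 ± 0.38 (SE; unadjusted p = 0.337 and 0.0671).

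The signals of the AD-like animals differed from each other in no constant direction. AD-like F1 was above F2 for 14 genes and below for 11, although the 99th percentile of its array was higher. For RPS27 the value of F2 was about that of the old median and that of F1 was below all old animals, and RPS25 had 761.9 in F1 and 1337 in F2, against 810.1 to 2607 in old animals.

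**Figure D4:**
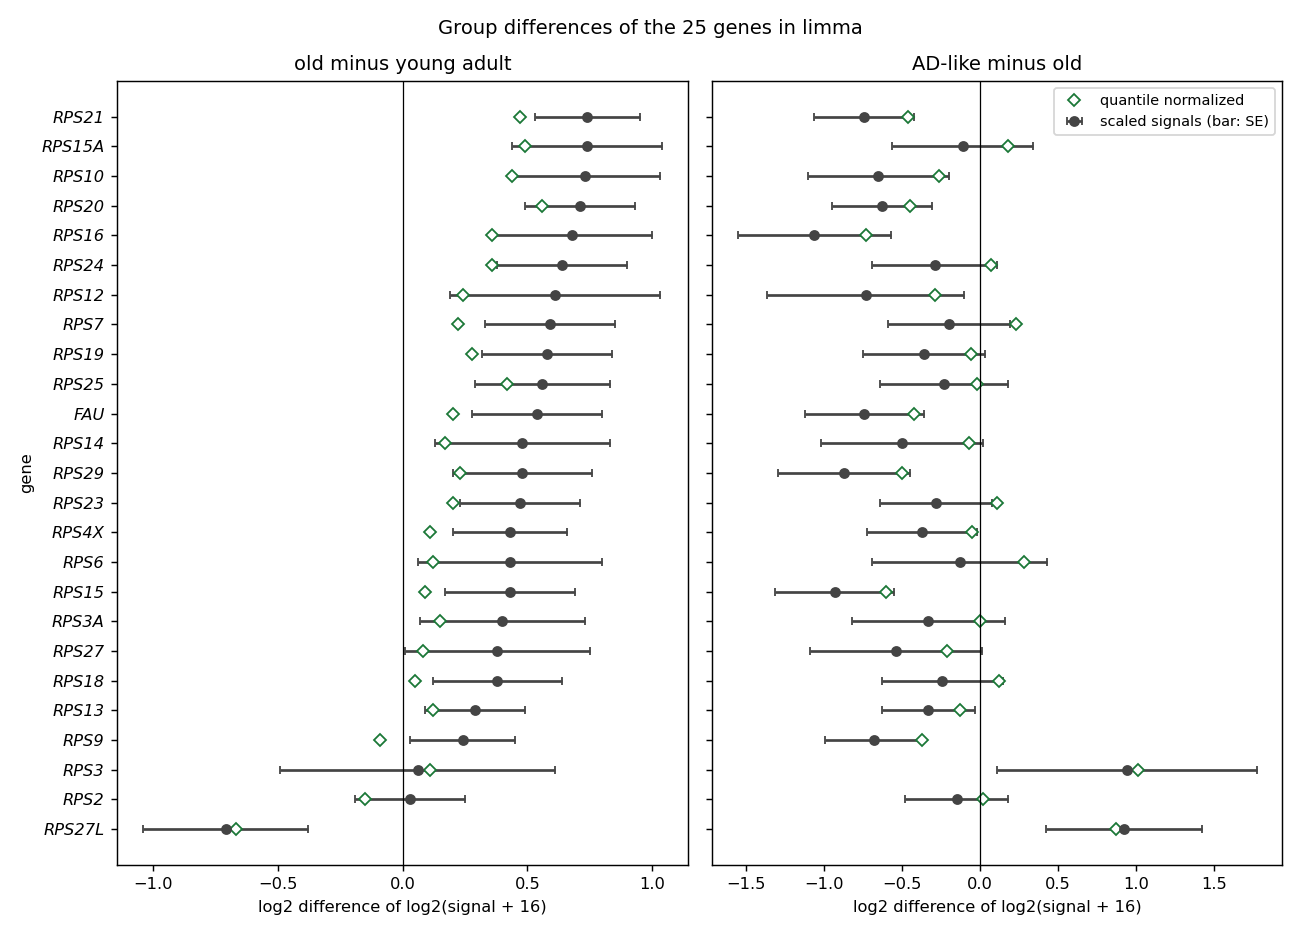
Log2 differences of the 25 genes for old minus young adult (left panel) and AD-like minus old (right panel), in order of the first, with filled circles and SE bars for scaled signals and open diamonds after quantile normalization. The 2 comparisons share the old animals, so their opposite signs are not independent, and the medians of 0.48 and -0.36 for scaled signals are 0.20 and -0.06 after quantile normalization.

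The median log2 difference of AD-like from old animals over the 25 genes was -0.36, and -0.06 after quantile normalization, with 16 genes below 0 and 9 above. RPS15, at -0.60, and RPS16, at -0.73, then kept an unadjusted p under 0.05. Of the 14567 kept probe sets 7230 were then below 0, and 624 were lower and 207 higher at such a p. Over all kept probe sets the median difference was 0.07 at mean signals under 300 and -0.33 at 3000 or more, where the 16 genes had a median of -0.44, and after quantile normalization it was 0.01 and 0.03 in these bands. Of those 16 genes 10 lay below the median of their band, and 11 after quantile normalization. This comparison and that of age share the old animals, so the differences of RPS21, 0.74 with age and -0.74 for AD-like against old, rest on the same old signals.

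Without either AD-like animal 1 gene had an unadjusted p under 0.05, and without old M1 8 had. The count was 2 without old F5, old F2 or old F3 and 3 without old F6, old F7 or old F1. For these fits without single animals no share over all kept probe sets was taken, so their counts have no background. In females alone 10 genes were lower and 1 higher at an unadjusted p under 0.05, with a median difference of -0.59, and none of them passed adjustment. In that fit 8.1% of all kept probe sets were lower and 3.92% higher, and of the bright ones 20.8% were lower and 0.316% higher. On arrays with poly-A control RNA, where AD-like F1 is the only AD-like animal, the median was -0.55 and 1 gene had an unadjusted p under 0.05. AD-like F2 and the 2 old males were the animals on the other arrays, too few for a test.

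Set against young adults, the AD-like animals showed no gene of the 25 at an unadjusted p under 0.05 in limma, where 4.34% of all kept probe sets passed, and 0 after adjustment. The median difference was 0.07, with 15 genes above 0 and 10 below, where 51.3% of all kept probe sets were above 0, and both AD-like signals lay within the range of the young adults for 21 of the 25 genes, against 55.4% of all kept probe sets and 69.7% of the bright ones. After quantile normalization the median was 0.11 with 16 genes above 0, where 7568 of the 14567 kept probe sets were above 0. The standard errors of 0.31 to 0.87 leave room for differences of that size in either direction. Over the 3 groups, limma's F test gave 4 of the 25 genes an unadjusted p under 0.05, against 5.07% of all kept probe sets, with RPS21 (p = 0.00402), RPS20 (p = 0.00888), RPS16 (p = 0.0438) and RPS15 (p = 0.0475), and 0 after adjustment (lowest adjusted p = 0.888).

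The third comparison was that of sex, with group in the model. In males 20 of the 25 genes had a negative log2 difference from females, where 53.7% of all kept probe sets and 93.2% of those with a mean signal of 1000 or more did. In all 7 of the 25 genes fell at an adjusted p under 0.05, where 7.65% of all kept probe sets and 37.2% of the bright ones did, and none rose, where 3.08% did. The log2 differences were -1.23 for RPS12, -1.20 for RPS6, -1.10 for RPS14, -0.93 for RPS3A, -0.87 for RPS10 and RPS29 and -0.71 for FAU, with adjusted p from 0.0195 for RPS6 and RPS29 to 0.0399 for FAU. After quantile normalization none of the 7 was called, with values of -0.40 for RPS12, -0.47 for RPS6, -0.18 for RPS14, -0.01 for RPS3A, 0.00 for RPS10, 0.07 for RPS29 and 0.01 for FAU. The median over the 25 genes was -0.61 with scaled signals and turned to 0.10 after quantile normalization. On scaled signals the other kept probe sets of RPS6 gave -1.03 and -0.14. Those of RPS3A gave -0.91, -0.49 and 0.63, and those of RPS10 gave -0.32, -0.39 and 0.82. Of these, only the -1.03 and the -0.91 had a limma adjusted p under 0.05, at 0.043 and 0.0425.

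RPS4X, which is X-linked and has the Y-linked partner RPS4Y1, had signals of 2461 to 3926 with a median of 3081 in the 5 males, against 2525 to 6495 with a median of 4421 in the 13 females. By group it had 3696 and 3259 in AD-like F1 and F2, 2461 to 6495 with a median of 4576 in old animals and 2525 to 4799 with a median of 3279 in young adults. The sexes overlapped, and the log2 difference of males from females was -0.58 ± 0.20 (SE; adjusted p = 0.0643), and 0.11 after quantile normalization. No gene of the 25 separated the sexes completely, as 0.199% of all kept probe sets did with all males lower.

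RPS6 showed the spread behind these calls. Its signals were 1861 to 7787 with a median of 6318 in males, against 7146 to 15045 with a median of 9070 in females, and the lowest values were those of young adult M1 and old M1. Of the 5 males 3 lay on arrays without poly-A control RNA and another, young adult M1, had the lowest 99th percentile of all, so sex and the bright end of the array cannot be told apart well here. With the poly-A control as a block, and on arrays with that control alone, 0 of the 25 genes passed adjustment, and likewise with the 99th percentile as a covariate, a setting added after seeing the data. Adjusted calls numbered 0 also without old M1 or old M2, 1 without young adult M1, 3 without young adult F1 or F2 and 13 without young adult F4.

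Whether the age difference itself depends on sex was tested by an interaction term. On the probe sets used none of the 25 genes had an unadjusted p under 0.05, against 4.65% of all kept probe sets, and 0 passed adjustment in limma. Another kept probe set of RPS16 had an interaction of 1.73, and the shared one of RPS26 had 1.35 (unadjusted limma p = 0.0306 and 0.0186, adjusted p = 0.998 for each). After quantile normalization these were 1.77 and 1.59 (unadjusted limma p = 0.0176 and 0.00795). The old minus young adult difference was above 0 for 21 genes in males, with a median of 0.26, and for 23 in females, with a median of 0.53. The male value rests on 2 young adult males, and the median interaction of -0.17 was -0.53 without young adult M1 and turned to 0.20 without young adult M2, 0.03 without old M1 and 0.02 without young adult F4. Among the probe sets used the smallest p was that of RPS2, with -0.56 in males and 0.30 in females (unadjusted p = 0.0571). After quantile normalization its interaction of -1.09 had an unadjusted p of 0.0211. The other kept probe set of RPS2 gave -0.40 (unadjusted limma p = 0.423), and -0.38 after quantile normalization (p = 0.46).

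Probe sets of the same gene gave a check of the values. Of the 25 genes, 11 had 2 or more kept probe sets, 29 in all, which form 27 pairs. Over the 18 animals the median Pearson r of log2 signals in a pair was 0.55, from -0.30 to 0.99, and the median Spearman rho was 0.49. After adjustment over the 27 pairs 15 had a permutation p under 0.05 for r and 13 for rho. The median r was 0.47 without the 2 animals farthest from the median of the first probe set, 0.52 for deviations from the group means and 0.45 after quantile normalization.

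**Figure D5:**
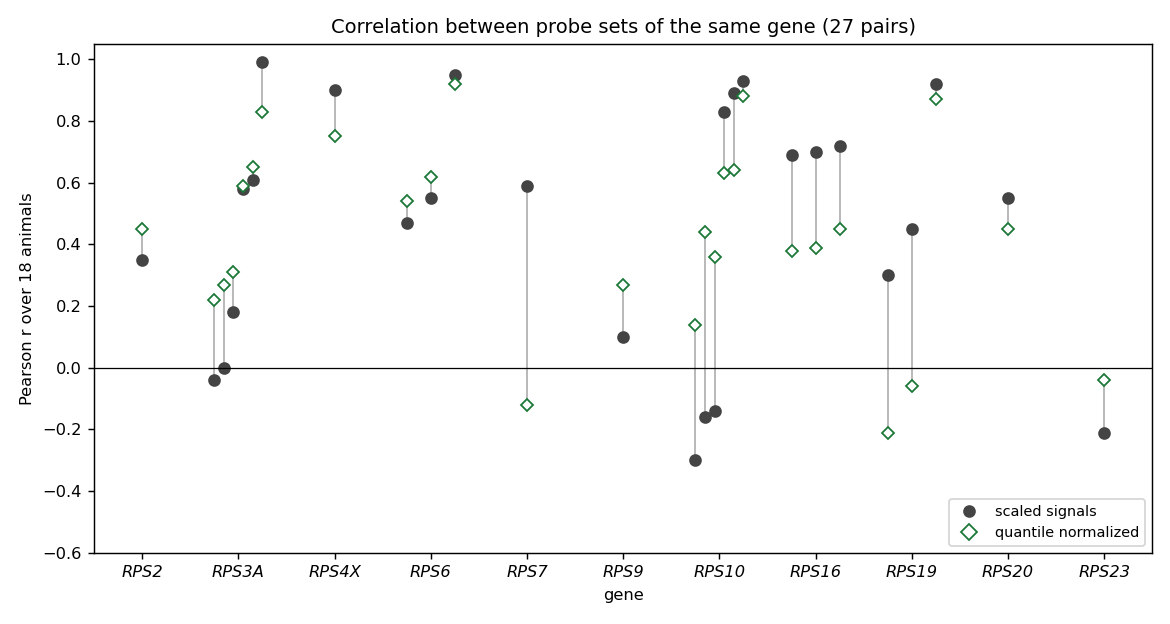
Pearson r over the 18 animals between log2(signal + 16) values of 2 probe sets of the same gene (y axis), 1 column of points per pair, for the 11 genes with several kept probe sets, with filled circles for scaled signals and open diamonds after quantile normalization. Pairs range from -0.30 in RPS10 to 0.99 in RPS3A, and with scaled signals each pair below 0.20 holds a dim probe set.

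Several pairs of bright probe sets had a high correlation. RPS3A, a protein of the platform where mRNA leaves, had the highest value, r = 0.99 and rho = 0.97 between its 2 brightest probe sets (adjusted permutation p = 4.5e-05 for each, from the smallest p of 1e-05 that the resamples can give, r = 0.98 without 2 animals, 0.83 after quantile normalization). The bright pairs of RPS6 (r = 0.95, rho = 0.92), RPS19 (r = 0.92, rho = 0.89) and RPS4X (r = 0.90, rho = 0.92) followed, all with an adjusted permutation p of at most 7.7e-05. In RPS10 3 of the 4 probe sets had r of 0.83 to 0.93 with each other. Other bright pairs were looser. A further bright probe set of RPS3A had r = 0.61 and 0.58 with the 2 brightest (adjusted permutation p = 0.0177 and 0.0271). These were 0.81 and 0.83 without 2 animals. RPS7 had r = 0.59 and rho = 0.57 (adjusted permutation p = 0.0209 and 0.0342, r = 0.47 without 2 animals), and r = -0.12 after quantile normalization. The brightest and the dimmest probe set of RPS6 had r = 0.47 and rho = 0.25 (adjusted permutation p = 0.0874 and 0.429), and r = 0.14 without 2 animals. Such probe sets can share probes or nearby sequence, which was not examined here.

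Several dim probe sets had low correlations with their partners on scaled signals, but not all. The dimmer probe set of RPS20 had r = 0.55 with its partner (adjusted permutation p = 0.0332). The dim one of RPS19 had r = 0.30 and 0.45 with its partners (adjusted permutation p = 0.305 and 0.0966). In RPS10 the dimmest probe set, with old signals of 31.7 to 253.3, had r of -0.30, -0.16 and -0.14 with its 3 bright partners, which turned to 0.14, 0.44 and 0.36 after quantile normalization. The age differences of these partners, 0.73, 0.63 and 0.63, stood beside 0.01 for it. In RPS23, a protein of the decoding centre, the bright probe set had an old minus young adult difference of 0.47 and the dim one a difference of -0.73 (unadjusted p = 0.0219), with signals of 21.6 to 149.5 in old animals, against 77.4 to 173.1 in young adults, and r = -0.21 between them, or -0.04 after quantile normalization. RPS9 gave 0.24 and -0.19, and RPS2 gave 0.03 for the probe set used and 0.57 for the other (unadjusted p = 0.0271).

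In 9 of the 11 genes all probe sets had the same sign of the age difference and in 8 of 11 the same sign for AD-like against old. Over the 43 kept probe sets of the list 40 were above 0 with age, 16 of them at an unadjusted p under 0.05 and 2 below 0 with such a p, where 53.9% of all kept probe sets and 86.3% of the bright ones were above 0 and 3.49% and 8.46% were higher at such a p. RPS16 had 0.68, 1.10 and 0.73 on its 3 probe sets, each at an unadjusted p under 0.05, and the closest values were those of RPS4X, with 0.42 and 0.43, neither at such a p. For AD-like against old animals 38 of the 43 were below 0 and 5 of them had an unadjusted p under 0.05, where 51.9% of all kept probe sets and 80.9% of the bright ones were below 0 and 3.62% and 2.97% were lower at such a p. RPS16 gave -1.06, -0.32 and -0.41 on the same 3 probe sets. RPS7 gave -0.20 for the probe set used and -0.95 for the other (unadjusted limma p = 0.613 and 0.0694).

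The probe sets under the minimum added little. The 3 of RPS28, a small protein of the mRNA exit, had signals from 4.99 to 139.9 in old and from 14.4 to 178 in young adult animals. On one of them both AD-like animals, at 13.4 and 14.4, and all 10 old animals, at 7.00 to 113.2, were below the young adult median of 115.7, but the lowest young adult had 26.5, and the median signal over all probe sets was 30.7 to 54.4 on the 18 arrays.

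Other genes of translation give the setting of these values. Of the 50 proteins of the large subunit listed, 39 were measured, and with age 35 of them lay above 0, 15 of them at an unadjusted p under 0.05, and 0 were lower at such a p. Their median was 0.56, or 0.30 with 8 higher after quantile normalization. For AD-like against old animals 34 of the 39 lay below 0, 3 were lower at an unadjusted p under 0.05 and the median was -0.32, or -0.12 after quantile normalization. Among 19 of 28 factors that assemble the small subunit, which were mostly dim, 11 lay above 0 with age and the median was 0.03, or 0.11 after quantile normalization, and among 24 of 29 initiation factors that bind it 19 lay above 0 with a median of 0.22, or 15 with a median of 0.10 after quantile normalization. Of 9 of 15 genes of mTOR and S6 kinase signalling none had an unadjusted p under 0.05 with age, with a median of 0.13, or 0.00 after quantile normalization, and none of the genes in these 4 lists passed adjustment between the groups.

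Levels of cell type markers were read beside these values. Of 10 neuron markers 9 were measured, and their summed signal was 25475 to 57065 in AD-like, 37209 to 64215 in old and 17659 to 64369 in young adult animals, with a median log2 difference of 0.38 with age and -0.12 for AD-like against old, or 0.21 and 0.10 after quantile normalization. Of 9 astrocyte markers 7 were measured, without GFAP and S100B, and their median log2 difference with age was 0.09, or -0.17 after quantile normalization. The microglia were read by 1 marker of 10, ITGAM, whose signal was 114.6 to 174.8 in AD-like, 71.8 to 161.9 in old and 14.4 to 222.2 in young adult animals. Its log2 difference was 0.77 with age, higher at an unadjusted p under 0.05, and 0.83 after quantile normalization, and it was 0.19 for AD-like against old. Blood was read by 1 marker of 5, at 0.25 with age, and 4 of 8 endothelial markers had a median of -0.04. None of these markers passed adjustment between the groups, and the part of the makeup of the tissue in the values of the ribosomal protein genes was not tested.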

How the data were processed

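Per the labels and methods, total RNA of the temporal cortex of 18 animals was hybridized to human Affymetrix arrays, 1 per animal. Each deposited value is a linear intensity per probe set, which the authors computed with GCOS 1.2 and scaled so that the trimmed mean of every array is 100. Detection calls were not used here. Probe sets with a signal of 150 or more on at least 3 arrays were kept (14567), controls left out, and log2(signal + 16) was fitted in limma 3.58.1 (R 4.3.3) on all 18 arrays with the 3 groups as terms, with Benjamini-Hochberg adjustment over the kept probe sets and a threshold of 0.05. The sex comparison added sex to the group, and the interaction had a term of its own. The number of arrays limits the precision. Labels do not say how the RNA of different animals was batched. The fit was tested on simulated data of this design. Probe sets of a gene were correlated in Python 3.11.15 with scipy 1.17.1 and 100000 resamples. Gene symbols came from the platform annotation, in which 12435 kept probe sets had 1 symbol, 576 several and 1556 none.

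Values by animal are given for the 8 genes with the smallest p with age, the 6 with the smallest p for AD-like against old, the 3 with the largest p with age, and RPS4X, RPS27, RPS27L and FAU. RPS6, RPS25 and RPS28 were added after their values were seen. The genes and the lists were chosen with earlier results of these data known. The labels do not say that a number marks shared animals or batches, and animals of the same number were not taken as paired. Of 10 such pairs 6 had a correlation of deviations over 0.1, from -0.269 to 0.470, against a median of -0.024 for other pairs, and the lowest were those with AD-like F2. The highest Spearman correlation of any 2 arrays was 0.89, so no array was taken as a repeat of another. Alternatives covered the offset, scaling, filter, sex, females alone, label numbers, poly-A control, 3' to 5' ratios, the tests named in the methods, the choice of probe set, and leaving out each animal. The result of 1 list of cell type markers is not reported here.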

Additional observations from a re-analysis of the deposited data

Results flagged for a closer look

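In 4 of 50 combinations of a gene and a group of 6 or 10 animals, 1 animal stood apart from the rest of its group by a gap that is large for the range of the group, where chance gives about 1 in 20 groups. Old M1 was the lone low animal for RPS10, with a signal of 4275.6 and 11682.5 in the next old animal, for RPS23, with 5817.9 and 10180.7 in the next, and for RPS6, with 2972.7 and 6384.9 in the next. Young adult M1 was the lone low animal for RPS6, with 1860.6 and 6317.5 in the next young adult. The arrays of old M1 and young adult M1 had 99th percentiles of 2088.6 and 1592.4, the lowest of their groups, and the part of this in the low signals was not tested. On the probe sets used, the test of a difference between males and females in the age difference gave none of the 25 genes an unadjusted p under 0.05. This does not show that the sexes are alike.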

How the results depend on the processing

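For age, the count of genes at an unadjusted p under 0.05, 10 of 25, was 3 after quantile normalization, 4 with the 99th percentile of the array as a covariate, 17 on arrays with poly-A control RNA and 6 there without young adult M1 (the second and last of these added after seeing the data), and 2 to 18 when single animals were left out. The median of 0.48 kept its sign throughout (0.20 to 0.66), as did the 8 genes with the smallest p. For AD-like against old, the count of 5 was 2 after quantile normalization, 3 with no filter, 9 with sex in the model, 11 in females, 3 with the poly-A control as a block, 1 on arrays with that control, 2 there without young adult M1, 2 by the methods' test on linear signals, 3 for the mean over probe sets, 3 for the dimmest probe set, 3 with the 99th percentile, and 1 to 8 leaving out animals. For AD-like against young adult, the count of 0 was 1 with no filter, with sex as a covariate or for the dimmest probe set. For the 3 groups, the count of 4 was 2 with an offset of 1, 1 after quantile normalization, 10 with sex, 11 in females, 8 with the poly-A block, 10 on arrays with that control, 8 with the beta-actin ratio, and 2 to 9 leaving out animals.

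For sex, the unadjusted count of 15 was 4 after quantile normalization, 9 with the poly-A block and 0 with the 99th percentile. In the fit that gave 15, 29.2% of all kept probe sets and 65.1% of the bright ones had an unadjusted p under 0.05. The adjusted count of 7 was 0 after quantile normalization, with no filter, with the poly-A block, on arrays with that control, with the beta-actin ratio and with the 99th percentile, 11 with an offset of 50 or median centring, 12 with a minimum of 300, and 0 to 13 leaving out animals. The median of -0.61 was 0.10 after quantile normalization and -0.11 with the 99th percentile, and RPS4X turned from -0.58 to 0.11 after quantile normalization. The interaction count of 0 was 1 after quantile normalization, with a minimum of 300, with the 99th percentile, and 0 to 2 leaving out animals.

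With the label number as a replicate block, a pairing that the labels do not give, the count was 9 for AD-like against old, 3 for AD-like against young adult, 9 for the 3 groups and 1 for the interaction, and 9 for age, near the 10 without it, and AD-like F2 did not correlate best with its own number. For sex the block could not be fitted, since the labels are nested in sex. Adjusted counts for the group comparisons were 0 in all settings run, the methods' test included, and the cause of these changes was not tested. Shares over all kept probe sets were not taken for most of these settings, so most of the counts have no background of their own.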
